A study of Mus musculus with 10 samples.

Results

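The genes that build sterols and fatty acids were followed in RNA-seq of ASZ001 cells, a mouse basal cell carcinoma line that resists inhibitors of Smoothened, after 24 h with an inhibitor of TGFß signaling or of AP-1. The list held 28 genes, which were 17 enzymes of sterol synthesis, 7 enzymes of fatty acid synthesis and 4 regulators or sterol transporters. Their rows were taken by symbol. In each experiment 27 of the 28 genes had a row and 26 passed a minimum mean of 1 RPKM (reads per kilobase of transcript per M (mega) mapped reads), out of 10842 genes tested with SB431542 and 10809 with T-5224. Hmgcs1 was not analysed here, and Tm7sf2 stayed under the minimum in both experiments.

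SB431542, a kinase inhibitor of the TGFß receptor ALK5, was given at 10 µM to 3 cultures, which were set against 3 cultures with the vehicle DMSO. T-5224, an inhibitor of AP-1 transcription factors, was given at 20 µM to 2 cultures and set against another 2 with DMSO. The labels give no genotype for the cells, and all 10 libraries come from the same line, so they describe that line and not tumors. All cultures, the DMSO controls included, were held in medium with 0.2% chelated serum and 0.05 mM CaCl2. These DMSO libraries are called the SB431542 controls and the T-5224 controls. The experiments have no control library in common and were normalized in separate tables, so each inhibitor was tested only within its own table.

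Cells make cholesterol from acetyl-CoA through mevalonate, the isoprenoids, squalene and lanosterol, and they make fatty acids from the same precursor through malonyl-CoA. Genes of both arms are switched on by the sterol regulatory element-binding proteins, which are held in the endoplasmic reticulum by Insig proteins while sterols are plentiful, whereas the liver X receptors switch on sterol export when sterols are in excess. In skin both arms supply membranes, barrier lipids and the sterol that Hedgehog signaling proteins carry or bind.

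The promoters of 4 sterol enzymes are printed, which either changed beyond 2-fold with T-5224 (Mvk, Mvd and Dhcr7) or held an AP-1 element (Dhcr7 and Msmo1). An AP-1 element was thus itself a reason for the choice. Mvk and Mvd fell by more than 2-fold, while Dhcr7 and Msmo1 rose. Each is the 250 bases before an annotated start in RefSeq (GRCm38.p6), read 5′ to 3′ on the gene's strand, with capitals for CCAAT (the NF-Y box) or TGANTCA (the AP-1 element) on either strand. No printed base lies in more than 1 match. Of 3 windows for Dhcr7, the one with the most matches is shown.
Mvk, chr5:114444019-114444268, plus strand: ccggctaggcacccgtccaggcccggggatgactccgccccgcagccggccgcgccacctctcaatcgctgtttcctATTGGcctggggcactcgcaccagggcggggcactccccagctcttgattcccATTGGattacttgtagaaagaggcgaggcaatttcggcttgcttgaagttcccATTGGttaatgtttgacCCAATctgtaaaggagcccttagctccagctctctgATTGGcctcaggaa
Mvd, chr8:122443423-122443672, minus strand: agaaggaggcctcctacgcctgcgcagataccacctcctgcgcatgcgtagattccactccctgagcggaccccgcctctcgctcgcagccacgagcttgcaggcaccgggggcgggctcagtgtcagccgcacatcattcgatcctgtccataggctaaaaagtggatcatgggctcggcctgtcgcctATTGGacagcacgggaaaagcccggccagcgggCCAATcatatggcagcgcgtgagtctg
Dhcr7, chr7:143829964-143830213, plus strand: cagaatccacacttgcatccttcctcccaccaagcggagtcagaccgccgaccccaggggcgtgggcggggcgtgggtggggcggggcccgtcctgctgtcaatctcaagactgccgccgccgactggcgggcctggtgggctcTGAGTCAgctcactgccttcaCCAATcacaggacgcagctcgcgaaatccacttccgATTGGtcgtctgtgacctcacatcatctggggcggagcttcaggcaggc
Msmo1, chr8:64733579-64733828, minus strand: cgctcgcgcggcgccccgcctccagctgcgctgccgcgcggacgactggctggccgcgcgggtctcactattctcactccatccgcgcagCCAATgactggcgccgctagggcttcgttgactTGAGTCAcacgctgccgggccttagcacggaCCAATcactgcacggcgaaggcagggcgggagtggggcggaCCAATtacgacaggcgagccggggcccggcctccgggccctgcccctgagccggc
The Mvk window held CCAAT 5 times, Mvd 2 times, Dhcr7 2 times and Msmo1 3 times. TGANTCA stood once in the Dhcr7 window and once in the Msmo1 window, and in neither the Mvk nor the Mvd window. These 4 genes were chosen after their changes and matches were seen. No other window of a member held TGANTCA, and the matched genes Pmvk, Cyp51, Lss, Acss2, Fasn, Srebf2 and Insig1, which also rose, had none.

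RefSeq windows matched 22 of the 28 genes, in 27 windows. Fdft1, Fdps, Scd1, Scd2, Sqle and Stard4 were not matched. CCAAT was in 20 of the 27 windows (74.1%) and in 33.8% of all 32851 windows of that length. GGGCGG, the core of the Sp1 box, was in 20 (74.1%, against 32.7%), CACGTG in 4 (14.8%, against 6.02%) and TGANTCA in 2 (7.41%, against 6.75%). The sterol element TCACNCCAC was found once, before Hmgcs1 (1.05% of all windows held it). CCAAT stood before genes that rose and before genes that fell with T-5224, and a match in these letters is a description and not a bound site.

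The cells carried the markers of basal keratinocytes, and most markers of other skin cells that had a row were near 0. All 8 keratinocyte markers were detected, with a summed level of 10234 to 10398 RPKM in the SB431542 controls and 12689 to 13494 RPKM in the T-5224 controls. Sebocytes and adipocytes make much lipid. Of their 8 markers, 5 had a row in the SB431542 experiment and 4 in the T-5224 experiment, each at or under 0.598 RPKM. Of the 5 melanocyte markers 3 and 1 had a row, each at or under 0.426 RPKM. Of the immune, endothelial and fibroblast markers with a row, only Cd14 (up to 2.83 RPKM), Pecam1 (up to 11.8 RPKM) and Dcn (up to 4.002 RPKM) passed 1 RPKM. Markers without a row were not analysed here. With T-5224 the keratinocyte sum was 1874 to 1931 RPKM. All 8 markers were lower at an adjusted p under 0.05 (limma), where 39.4% of all genes tested were. Of them 6 fell by more than 2-fold, where 10.6% of all genes did. With SB431542 the sum was 7228 to 7675 RPKM. There Krt5, Krt14, Col17a1 and Dsp were lower (50% of the markers, beside 10% of all genes). Krt15 was higher (0.49 on the log2 scale, adjusted p = 0.0291), which is 12.5% of the markers beside 10.2% of all genes. Trp63, Itga6 and Itgb4 did not pass the test (adjusted p = 0.533, 0.645 and 0.673). The part of these markers in the results that follow was not tested. The depth worked out from the values was 31.65 to 51.5 M reads per library, which puts at least 1147 reads behind each tested member in the SB431542 experiment and at least 393 in the T-5224 experiment. Replicate 1 of the SB431542 controls stood apart from the other two DMSO libraries, with an SD from them over genes of 0.27 on the log2 scale (0.16 and 0.19 for the others), and the calls that it changed are given with and without it. In bulk RNA, fewer cells that express a gene and less RNA per cell cannot be told apart.

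RPKM divides by transcript length, so levels of different genes can be set side by side. In the SB431542 controls the highest member was Scd2, a stearoyl-CoA desaturase, at 725 ± 30.4 RPKM (SD, n = 3). After it came Fdps, Idi1, Sqle and Msmo1, at 234, 184, 177 and 159 RPKM, and Scd1 and Cyp51, at 134 and 130 RPKM. The spreads of Idi1 (15.5) and Sqle (6.51) overlapped, as did those of Scd1 (11.3) and Cyp51 (10.0), so these neighbours did not differ beyond their spread. The lowest tested members were Ebp, at 18.6 ± 0.332 RPKM, and Acss2, at 8.77 ± 0.306 RPKM. In the T-5224 controls Scd2 was again highest, at 765 ± 46.0 RPKM (SD, n = 2), followed by Sqle at 142 RPKM, Scd1 at 132 RPKM and Srebf2 at 111 RPKM. The lowest there were Acss2, Acaca and Idi1, at 6.80, 6.12 and 4.12 RPKM. Tm7sf2, a sterol reductase, lay between 0.466 and 0.919 RPKM in the SB431542 experiment and between 0.219 and 0.718 RPKM in the T-5224 experiment. Another sterol reductase for the same step, Lbr, was at 27.98 to 35.5 RPKM in the SB431542 controls and at 10.7 and 11.9 RPKM in the T-5224 controls.

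**Figure D1:**
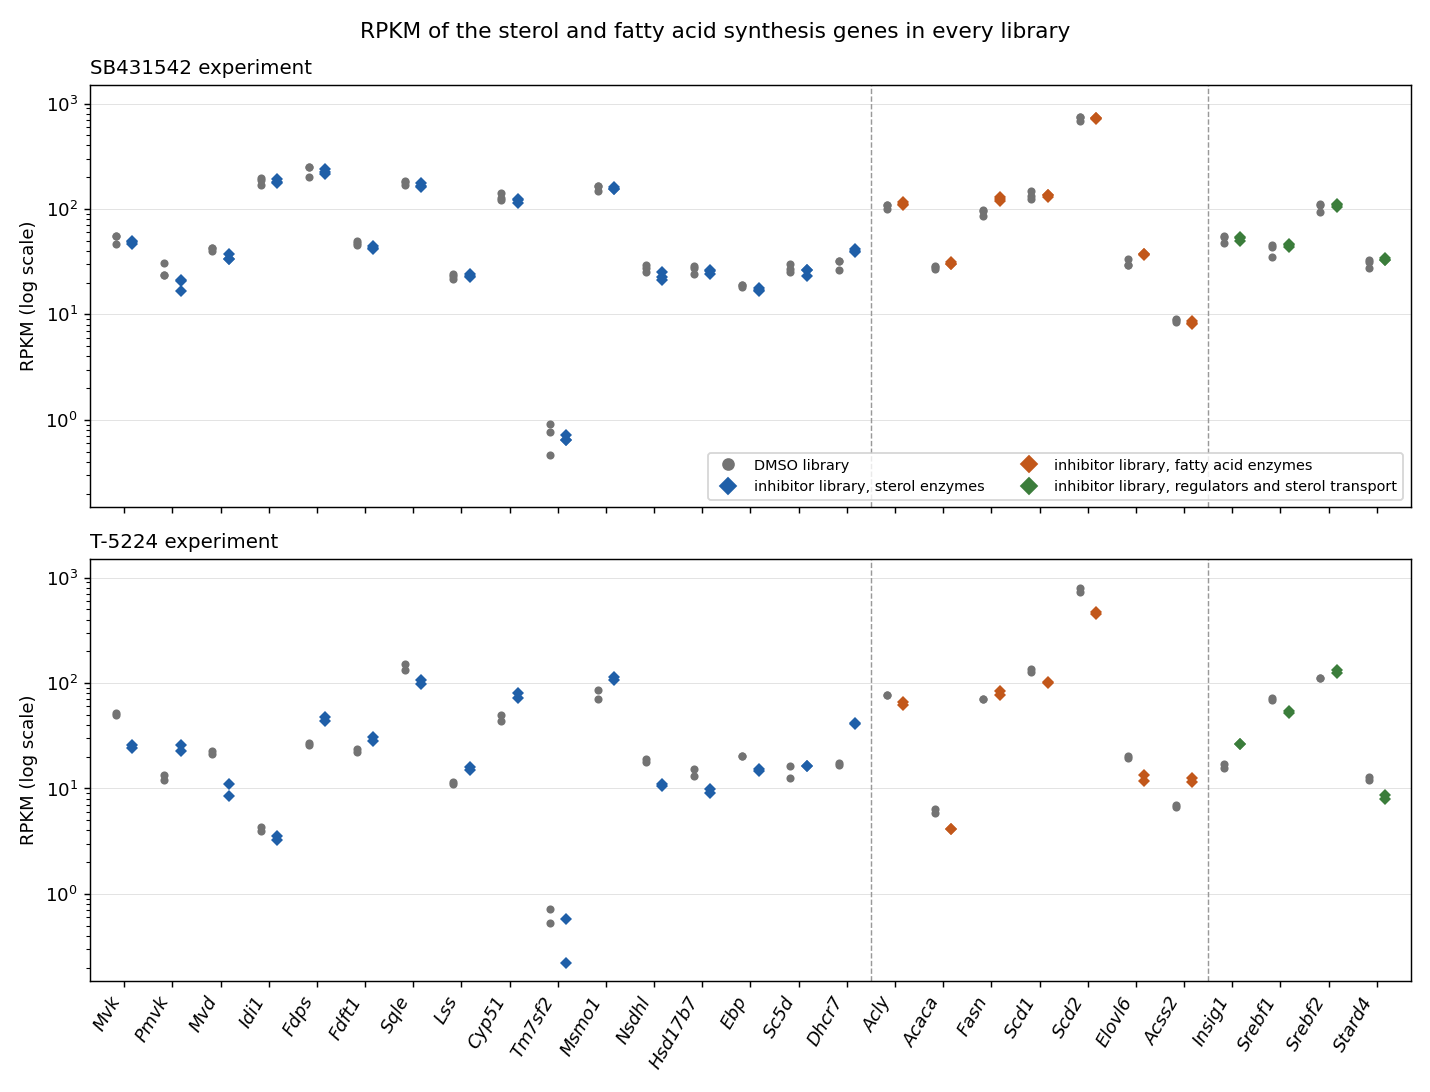
RPKM (log axis) of the 27 members with a row, by gene, in every library of the SB431542 experiment (top) and the T-5224 experiment (bottom); gray circles are DMSO libraries and colored diamonds inhibitor libraries, colored by arm. With SB431542 most diamonds sit level with the circles. With T-5224 many sit apart, above for some genes (Dhcr7, 16.7 and 17.5 to 40.5 and 41.9 RPKM) and below for others (Mvk, 50.2 and 52.5 to 24.0 and 26.0 RPKM), while those of Sc5d and Tm7sf2 overlap the circles.

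With T-5224, 25 of the 26 tested members changed at an adjusted p under 0.05 (limma, Benjamini-Hochberg over all genes tested), 14 down and 11 up. Over all genes tested, 39.4% were lower and 40.3% higher at that threshold, against 53.8% and 42.3% of the members, so the share that rose was near the background. Beyond a 2-fold change as well, 2 members were lower, Mvk and Mvd, and 1 was higher, Dhcr7, where 10.6% of all genes were lower and 10.4% higher. The sterol enzymes split evenly, with 7 lower, 7 higher and only Sc5d not passing the test. Of the 7 fatty acid enzymes 5 were lower and 2 higher. Of the 4 regulators and transporters 2 were lower and 2 higher.

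Of the 3 steps from mevalonate to isopentenyl diphosphate, the enzymes of the first and the last fell with T-5224 and that of the middle step rose. Mvk, mevalonate kinase (mm9 chromosome 5, 114894278 to 114910600), was at 52.5 and 50.2 RPKM with DMSO and at 26.0 and 24.0 RPKM with T-5224. Both treated libraries lay below both controls, with a log2 fold change of -1.03 ± 0.062 (SE; adjusted p = 3.27e-08). Pmvk, phosphomevalonate kinase, which takes the next step, was at 13.3 and 12.1 RPKM with DMSO and at 25.9 and 22.53 RPKM with T-5224. It rose by 0.90 ± 0.080 on the log2 scale (adjusted p = 9.21e-07), and the groups did not overlap. Mvd, the decarboxylase that follows (mm9 chromosome 8, 124957496 to 124967322), fell from 21.3 and 22.8 RPKM to 11.01 and 8.46 RPKM. Its change, -1.15 ± 0.103 (adjusted p = 9.42e-07), was the largest fall among the members, and its 2 treated libraries lay further apart from each other than its controls did. Without T-5224 replicate 2 neither fall was beyond 2-fold (log2 fold change -0.97 for both Mvd and Mvk) and Pmvk passed 2-fold (1.001), and without DMSO replicate 1 Mvk was at -0.99. All 3 kept an adjusted p under 0.05 with any library left out.

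The isoprenoid and squalene steps split in the same way. Fdps, farnesyl diphosphate synthase, was at 26.7 and 25.6 RPKM with DMSO and at 48.1 and 43.5 RPKM with T-5224, a log2 fold change of 0.79 ± 0.064 (adjusted p = 4.08e-07). Both treated libraries were above both controls. Fdft1, squalene synthase, rose by 0.35 on the log2 scale, from a mean of 22.8 to 29.2 RPKM, while Sqle, squalene epoxidase, fell by 0.46, from 142 to 103 RPKM. Idi1, isopentenyl-diphosphate isomerase, had means of 4.12 and 3.40 RPKM (log2 fold change -0.24 ± 0.098, adjusted p = 0.0374). The call for Idi1 was lost without the filter on low values (adjusted p = 0.0888), with quantile normalization (0.11) and without DMSO replicate 1 or either T-5224 library (0.157, 0.0710 and 0.200).

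The enzymes that make lanosterol and turn it into cholesterol also went both ways. Lss, which closes the sterol rings, rose by 0.44 on the log2 scale, Cyp51, the lanosterol demethylase, by 0.69 (46.8 to 75.9 RPKM) and Msmo1, a methylsterol oxidase, by 0.49 (78.7 to 110 RPKM). Nsdhl, which acts with Msmo1 to take off the methyl groups (mm9 chromosome X, 70163896 to 70203853), was at 19.2 and 17.8 RPKM with DMSO and at 10.5 and 11.1 RPKM with T-5224, a log2 fold change of -0.75 ± 0.071 (adjusted p = 1.43e-06). Hsd17b7, the ketoreductase of the same complex, fell by 0.55 on the log2 scale, and Ebp, the sterol isomerase, fell by 0.44. Sc5d, a desaturase, was at 16.3 and 12.5 RPKM with DMSO and at 16.5 and 16.3 RPKM with T-5224, which did not pass the test (log2 fold change 0.19, adjusted p = 0.103). It did without DMSO replicate 1 (0.38, adjusted p = 1.54e-05), and without DMSO replicate 2 its log2 fold change was 0.0063 (adjusted p = 0.947). Dhcr7, the reductase that makes cholesterol in the last step (mm9 chromosome 7, 151009050 to 151034315), rose most of all members, from 17.5 and 16.7 RPKM to 41.9 and 40.5 RPKM. Its level with T-5224 was 2.41 times that with DMSO, a log2 fold change of 1.24 ± 0.060 (adjusted p = 5.34e-09), and it stayed beyond 2-fold with any library left out (1.21 to 1.28). The median log2 fold change of the 15 sterol enzymes tested was 0.19, which is the value of Sc5d, beside 0.0034 over all genes. That median was -0.0262 without the filter on low values, where Tm7sf2 enters, 0.38 without DMSO replicate 1 and 0.0063 without DMSO replicate 2.

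**Figure D2:**
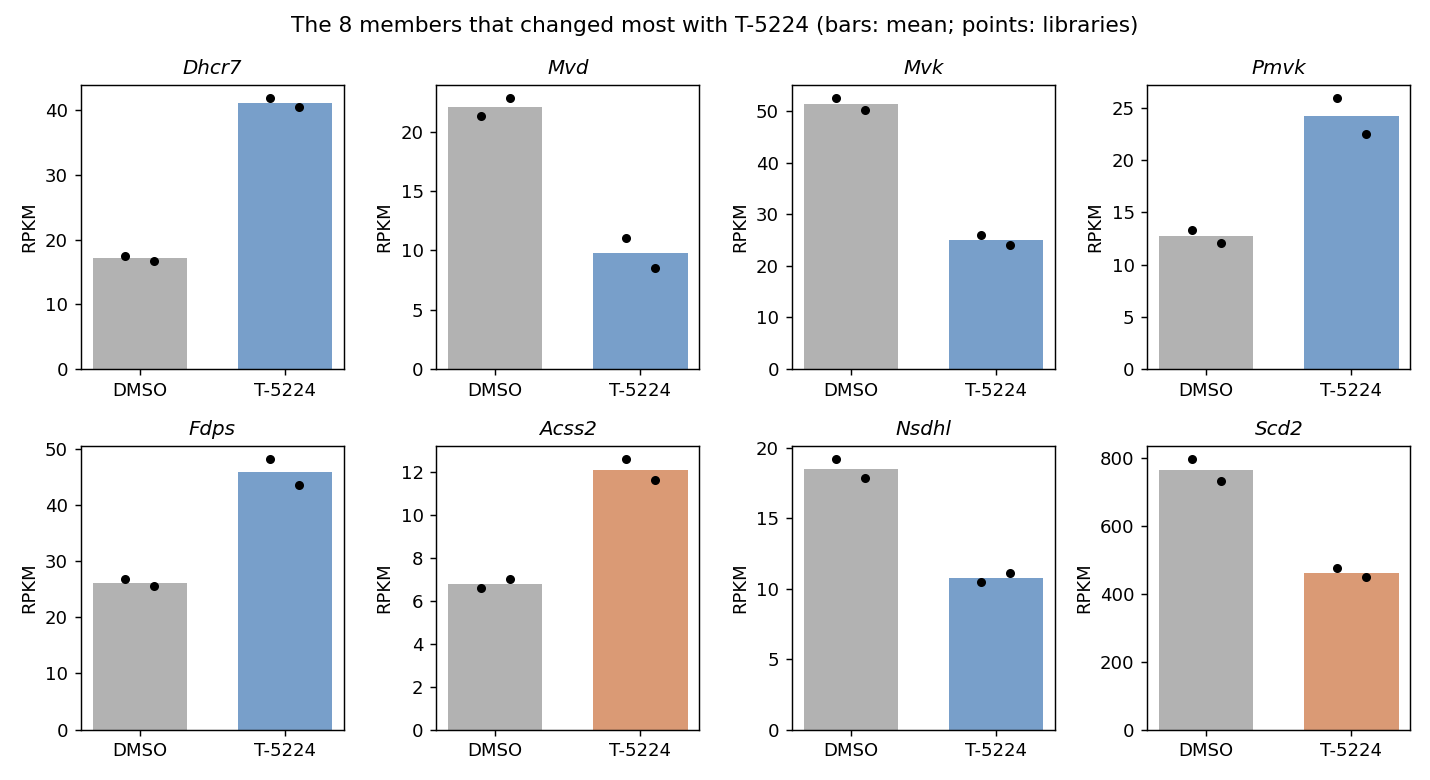
RPKM (linear axes from 0) of the 8 members that changed most with T-5224, with bars for the mean of 2 libraries and points for each library, gray for DMSO and colored for T-5224 (blue for sterol enzymes, orange for fatty acid enzymes). Dhcr7, Pmvk, Fdps and Acss2 are higher with T-5224, and Mvd, Mvk, Nsdhl and Scd2 are lower. The genes were picked for the size of their change, so the gap between their 2 groups is not a separate result.

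Of the 7 listed fatty acid enzymes, Acly, Acaca, Scd1, Scd2 and Elovl6 were lower with T-5224, and Acss2 and Fasn were higher. This did not extend to the 20 other fatty acid and glycerolipid genes tested, described below. Of those, 13 were higher (65%, beside 40.3% of all genes) and 3 lower (15%, beside 39.4%). The rises included the desaturase Fads1 (71.5 to 162 RPKM) and the elongases Elovl1, Elovl5 and Elovl7. Acly, which makes cytosolic acetyl-CoA from citrate, fell by 0.26 on the log2 scale (77.2 to 64.4 RPKM), and Acaca, acetyl-CoA carboxylase, fell by 0.52 (6.12 to 4.12 RPKM). Scd2, the most abundant member, was at 797 and 732 RPKM with DMSO and at 476 and 450 RPKM with T-5224. Its log2 fold change was -0.72 ± 0.058 (adjusted p = 3.91e-07), and its fall of 39.4% was, in RPKM, the largest drop of any member. Its neighbour Scd1, another desaturase on mm9 chromosome 19, fell by 0.37 on the log2 scale (132 to 102 RPKM), and Elovl6, which elongates palmitate, fell by 0.63 (19.7 to 12.5 RPKM). Acss2, which makes acetyl-CoA from acetate, went the other way, from 6.61 and 6.99 RPKM to 12.6 and 11.6 RPKM, a log2 fold change of 0.79 ± 0.078 (adjusted p = 2.22e-06). Fasn, fatty acid synthase, rose by 0.17 on the log2 scale (71.1 to 80.2 RPKM, adjusted p = 0.0145). The call for Fasn was lost with quantile normalization (0.05, adjusted p = 0.26), without the mean-variance trend (adjusted p = 0.0552) and without T-5224 replicate 1 (0.12, adjusted p = 0.145). The median log2 fold change of the 7 enzymes was -0.37, beside 0.0034 over all genes.

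Among the regulators, Srebf2, which encodes the factor that favors sterol genes, rose by 0.22 on the log2 scale with T-5224 (111 to 130 RPKM, adjusted p = 0.00218), while Srebf1, whose product favors fatty acid genes, fell by 0.40 (70.6 to 53.4 RPKM, adjusted p = 3.15e-05). Insig1, which holds both factors back, rose by 0.69 on the log2 scale (16.2 to 26.6 RPKM, adjusted p = 1.66e-06). Stard4, a carrier of cholesterol in the cytosol, fell by 0.56 on the log2 scale (12.5 to 8.30 RPKM, adjusted p = 3.49e-05). In all 4 genes both T-5224 libraries lay on one side of both DMSO libraries. How many of all genes were separated like this was not counted, so it does not set these 4 genes apart. Most genes changed with T-5224 in limma's test, with 39.4% falling and 40.3% rising.

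With SB431542 the changes were small, and 4 of the 26 tested members passed an adjusted p under 0.05. Mvd was lower, and Dhcr7, Fasn and Elovl6 were higher. Over all genes tested, 10% were lower and 10.2% higher at that threshold, against 3.85% and 11.5% of the members, so the share that rose was near the background. Beyond a 2-fold change as well, 0 members were lower and 0 higher in limma's test, where 0.581% of all genes were lower and 0.231% higher. At an unadjusted p under 0.05 these counts were also 0 and 0, beside 0.673% and 0.24% of all genes. At an unadjusted p under 0.05 without a limit on the fold change, 4 members were lower and 4 higher, where 17% of all genes were lower and 19.1% higher.

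**Figure D3:**
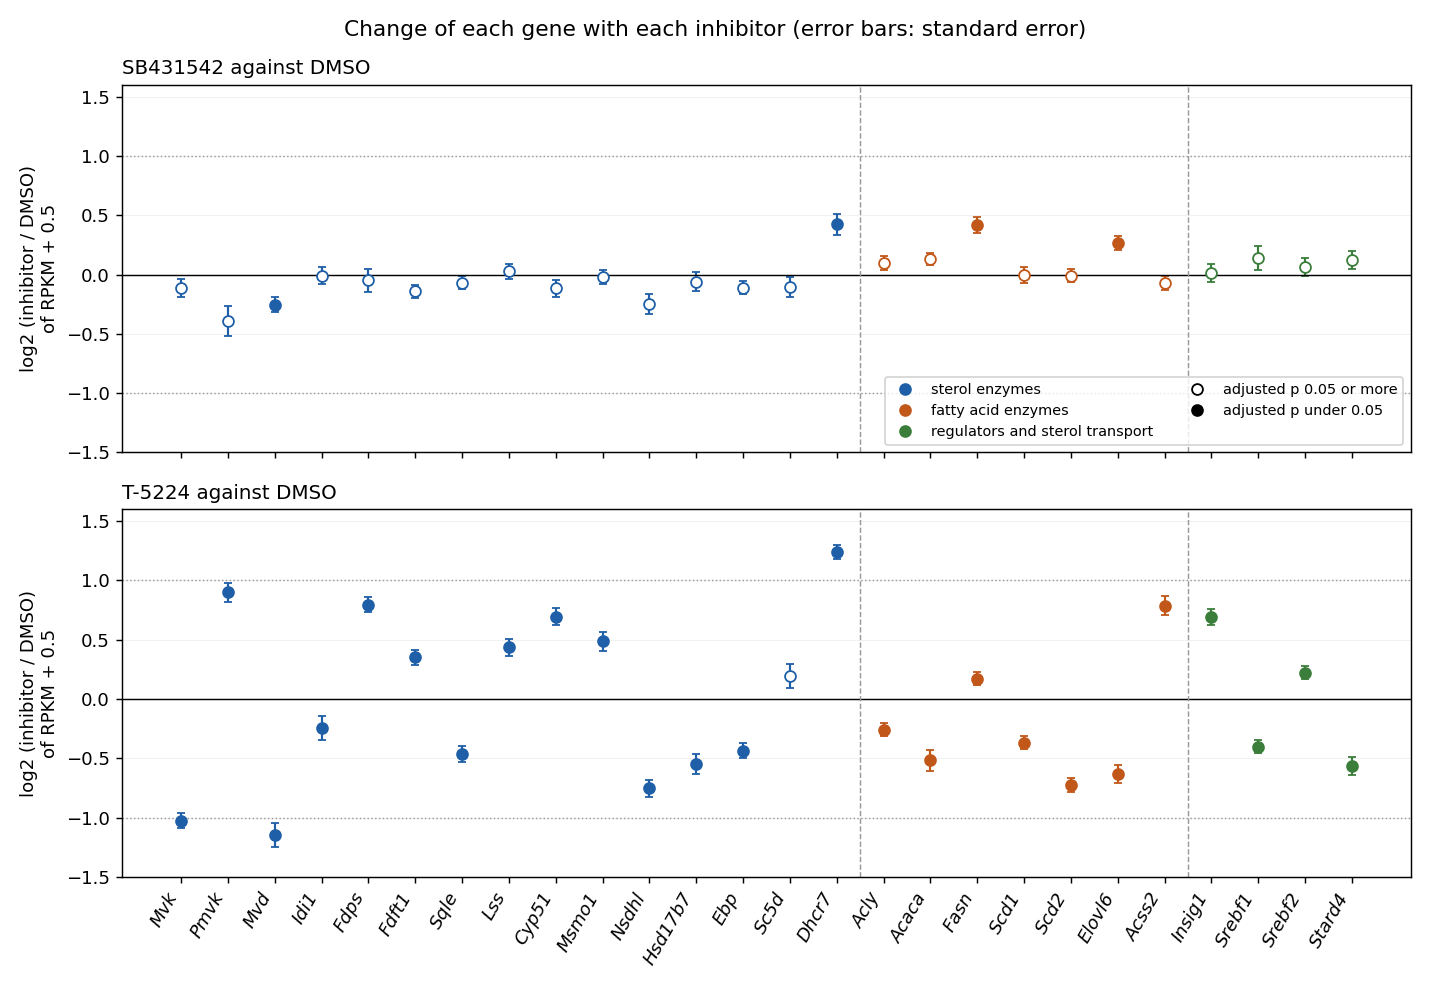
Log2 fold change of RPKM + 0.5 of the 26 tested members with SB431542 (top) and T-5224 (bottom), in pathway order within each arm, with standard errors and filled points for an adjusted p under 0.05; dotted lines mark 2-fold. With SB431542 the sterol enzymes lie between -0.39 (Pmvk) and 0.42 (Dhcr7), and with T-5224 they lie on both sides of 0, from -1.15 (Mvd) to 1.24 (Dhcr7).

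Of the 15 sterol enzymes tested with SB431542, 13 had a log2 fold change below 0, as had 5244 of all 10842 genes. The median of the 15 was -0.11 beside 0.0082 over all genes, but only Mvd was called. Fdps, Idi1 and Msmo1 lay near 0 and changed sign with a library left out. Mvd was at 40.1, 42.8 and 42.9 RPKM with DMSO and at 33.8, 37.8 and 33.8 RPKM with SB431542, a log2 fold change of -0.25 ± 0.063 (adjusted p = 0.0304). All 3 treated libraries were below all controls. Pmvk was at 30.9, 23.7 and 23.5 RPKM and at 16.8, 21.4 and 20.9 RPKM, a larger difference of -0.39 with a wider error (SE 0.13, adjusted p = 0.0716). Nsdhl was at 29.6, 27.7 and 25.3 RPKM and at 21.3, 25.3 and 22.7 RPKM (-0.25 ± 0.083, adjusted p = 0.0758), so that its groups touched. Fdft1 was at 49.3, 47.1 and 45.7 RPKM with DMSO and at 42.1, 44.1 and 42.4 RPKM with SB431542 (-0.14 ± 0.052, adjusted p = 0.0936). None of these 3 passed the test. Dhcr7 stood against the rest of the arm, at 26.2, 32.0 and 31.9 RPKM with DMSO and at 38.9, 42.1 and 39.8 RPKM with SB431542. It rose by 0.42 ± 0.086 on the log2 scale (adjusted p = 0.0155), and all 3 treated libraries were above all controls. The other 10 sterol enzymes had log2 fold changes between -0.12 (Cyp51) and 0.03 (Lss), with adjusted p from 0.176 (Ebp) to 0.952 (Idi1).

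Library choice moved these calls. Without DMSO replicate 1, which stood apart, 5 members were lower with SB431542, since Mvk (-0.20, adjusted p = 0.00358), Fdps (-0.16, 0.0257), Fdft1 (-0.11, 0.0448) and Pmvk (-0.26, 0.0477) joined Mvd. The share of all genes lower without that library was not counted, so this number cannot be set against a background. The call for Mvd was lost without DMSO replicate 2 or 3 and without SB431542 replicate 1 or 3 (adjusted p from 0.0718 to 0.125), and that for Dhcr7 without any 1 of the 3 SB431542 libraries (0.0517 to 0.0722). For Mvk, DMSO replicate 1 was at 46.3 RPKM beside 54.9 and 55.9 RPKM, and the SB431542 libraries were at 48.6, 49.1 and 46.9 RPKM.

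In the fatty acid arm with SB431542, Fasn and Elovl6 were higher and the other 5 enzymes did not pass the test. Fasn was at 85.8, 95.9 and 98.6 RPKM with DMSO and at 119.9, 125 and 130.1 RPKM with SB431542. The rise of 0.42 ± 0.067 on the log2 scale (adjusted p = 0.00658) kept its call with each of the 6 libraries left out in turn (0.36 to 0.46, adjusted p at most 0.0419). Elovl6 was at 33.3, 29.7 and 29.7 RPKM and at 36.5, 37.5 and 37.5 RPKM (0.27 ± 0.060, adjusted p = 0.0227), and its call held only when DMSO replicate 1 was the library left out (largest adjusted p of the others 0.0958). Acaca was at 26.9, 28.5 and 28.004 RPKM and at 30.1, 30.2 and 31.3 RPKM (0.13, adjusted p = 0.103). Acly, Scd1, Scd2 and Acss2 had log2 fold changes from -0.07 (Acss2) to 0.10 (Acly). The median log2 fold change of the arm was 0.098.

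None of the 3 regulators passed the test with SB431542, nor did the carrier. Srebf1 was at 34.8, 43.5 and 45.9 RPKM with DMSO and at 47.0, 45.4 and 43.5 RPKM with the inhibitor (0.14 ± 0.102, adjusted p = 0.366), with the groups overlapping. Stard4 had a log2 fold change of 0.12 (adjusted p = 0.272), Srebf2 of 0.06 (0.581) and Insig1 of 0.01 (0.926; 95% interval -0.16 to 0.19). Without DMSO replicate 1 the log2 fold change was 0.02 for Srebf1 (adjusted p = 0.768), 0.05 for Stard4 (0.401), -0.02 for Srebf2 and -0.06 for Insig1.

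Of the 4 members called with SB431542, Mvd was lower and Dhcr7 and Fasn were higher with T-5224 too, while Elovl6 was higher with SB431542 (0.27) and lower with T-5224 (-0.63). The call for Fasn with T-5224 was lost under some alternatives, given above. With T-5224, 39.4% of all genes were lower and 40.3% higher. How many of all genes were called in the same direction with both inhibitors was not counted, so the shared calls have no background beside them. Pmvk went from 26.1 to 19.7 RPKM with SB431542 without passing the test and rose with T-5224. The doses differ and the tables were normalized apart, so the difference between the inhibitors was not tested.

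The levels listed for the SB431542 controls and for the T-5224 controls differed for many members. Between the tables, 9 of the 26 members were lower by more than 2-fold in RPKM + 0.5 in the T-5224 controls (34.6%, beside 9.07% of the 10462 genes tested in both tables). None was higher by as much, where only 4.36% of those genes were. The median difference of the members was -0.84 on the log2 scale beside 0.011 over all these genes. Idi1 was at 184 RPKM in the one and 4.12 RPKM in the other, 44.7 times as high, Fdps at 234 and 26.2 RPKM (8.92 times), Acaca at 27.8 and 6.12 RPKM (4.54 times) and Insig1 at 52.4 and 16.2 RPKM (3.22 times). Cyp51 was at 130 and 46.8 RPKM (2.78 times). Mvk, Scd1, Scd2, Srebf2 and Ebp were close to equal (0.908 to 1.02 times), and Srebf1 was the one member clearly higher in the T-5224 experiment, at 70.6 beside 41.4 RPKM. These levels are a description with no test, since the tables were scaled apart.

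Some of these genes have near-identical copies elsewhere in mm9, whose reads an aligner can split or drop. A copy with at least 90% identity over at least 20% of the transcript was found for 9 of the 27 members searched, among them 5 of the 9 that were lower by more than 2-fold and 4 of the other 17. The transcript of Idi1 had 3 copies, up to 99.9% identical, Fdps had 2, up to 98.9%, and Acaca, Fdft1 and Insig1 had 1 each, at 99.5%, 98.0% and 98.0%. How copies were counted in each table was not given in the sources used here, and its part in the levels was not tested, so the levels of these genes are uncertain. Pmvk, Cyp51, Msmo1 and Stard4, the other 4 that were lower by more than 2-fold, had no such copy. Fdft1 also shares 26.9% of its exon bases with Ctsb on the opposite strand, and whether the counting used strand is not given.

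**Figure D4:**
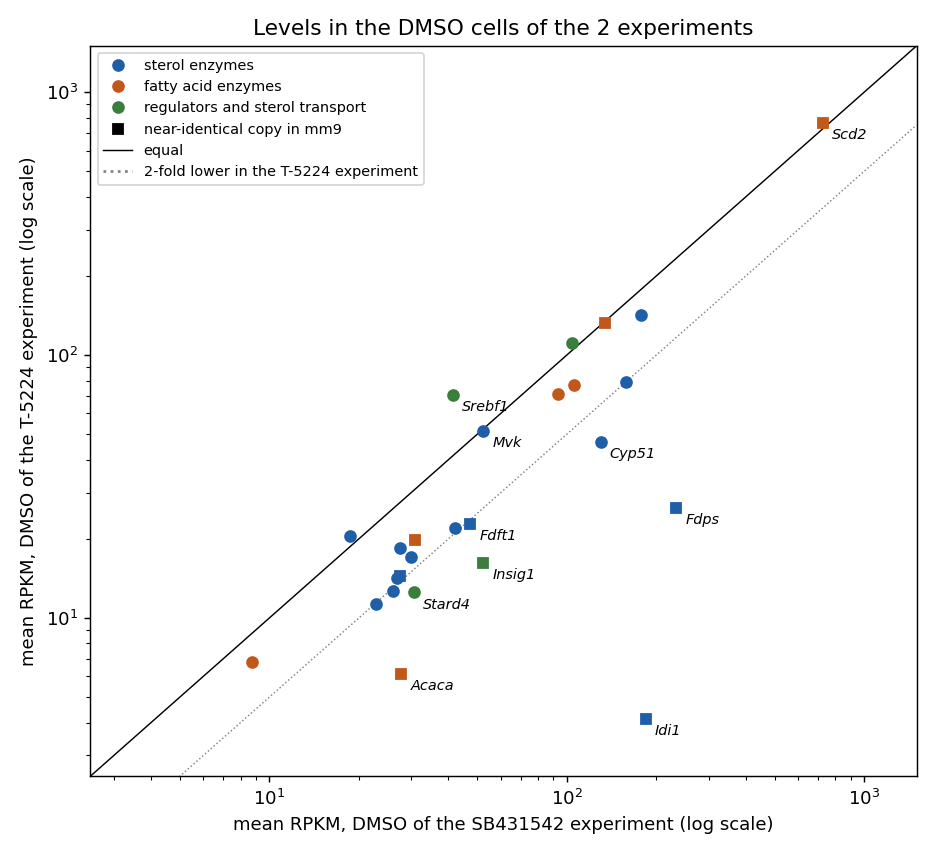
Mean RPKM (log axes) of the 26 tested members in the SB431542 controls (n = 3, horizontal) against the T-5224 controls (n = 2, vertical), colored by arm. Squares mark genes with a copy in mm9 by the limits above, which for Scd1 and Scd2 is each other's gene. Of the 26 points 22 lie below the line of equality, and Idi1, Fdps and Acaca lie far below the dotted 2-fold line. The share of all genes below the line of equality was not counted.

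Around the members, 43 other genes of sterol and fatty acid metabolism were looked up. Of the 40 tested with T-5224, 11 were lower (27.5%, beside 39.4% of all genes) and 21 higher (52.5%, beside 40.3%). Beyond 2-fold, 3 were lower (7.5%, beside 10.6%) and 9 higher (22.5%, beside 10.4%). The 3 falls were targets of the liver X receptors. Abca1, which exports cholesterol, was at 10.7 and 9.99 RPKM with DMSO and at 0.088 and 0.104 RPKM with T-5224 (log2 fold change of RPKM + 0.5 -4.19, adjusted p = 4.18e-11). Abcg1, its partner in export, was at 8.70 and 9.09 RPKM and at 0.215 and 0.242 RPKM (-3.69, adjusted p = 9.28e-11), and both genes passed the minimum mean through their DMSO libraries. Mylip, a ubiquitin ligase for lipoprotein receptors, was at 22.1 and 22.7 RPKM and at 3.34 and 3.86 RPKM (-2.49, adjusted p = 2.33e-10). Nr1h2, a liver X receptor, was slightly higher (0.18, adjusted p = 0.0102).

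In the SB431542 experiment Abca1 and Abcg1 were under the minimum and were not tested. Abca1 was at 1.002, 1.25 and 1.41 RPKM with DMSO and at 0.712, 0.562 and 0.566 RPKM with SB431542, so that its DMSO level was also far from that in the T-5224 experiment. Abcg1 was at 0.566, 0.550 and 0.693 RPKM and at 0.307, 0.181 and 0.187 RPKM. In both genes all treated libraries were below all controls, at levels of at most 1.41 RPKM. How many of all genes were separated like this was not counted in either experiment. Such a separation therefore does not set apart these genes or those described above. Mylip was lower with SB431542 as well, from 9.53, 8.999 and 7.67 RPKM to 6.68, 6.46 and 5.59 RPKM (-0.45, adjusted p = 0.0205).

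The rises with T-5224 were led by Erlin1, whose product helps degrade sterol enzymes in the endoplasmic reticulum, from 13.5 and 12.8 RPKM to 90.3 and 87.6 RPKM (log2 fold change 2.71, adjusted p = 8.73e-12). Mid1ip1, an activator of acetyl-CoA carboxylase, rose from 19.7 and 18.5 RPKM to 74.96 and 69.9 RPKM (log2 fold change 1.90), and Elovl7, an elongase, from 5.18 and 5.30 RPKM to 19.7 and 18.0 RPKM (1.75). Acacb, the second acetyl-CoA carboxylase, rose from 0.320 and 0.458 RPKM to 1.72 and 1.51 RPKM (log2 fold change 1.25) and passed the minimum through its treated libraries, while its paralog Acaca fell. Dgat2, which makes triglyceride, rose by 1.37 and Tmem97, a sterol-regulated membrane protein, by 1.34 on the log2 scale. With SB431542, 2 of the 37 genes tested were lower (5.41%, beside 10% of all genes) and 5 higher (13.5%, beside 10.2%), and none passed 2-fold at an adjusted or an unadjusted p. Of the 8 genes that process the sterol regulatory element-binding proteins, 3 were lower and 3 higher with T-5224. That is 37.5% each, near the 39.4% and 40.3% of all genes. With SB431542, 0 were lower or higher (limma, adjusted p under 0.05), beside 10% and 10.2% of all genes. At an unadjusted p under 0.05 Erlin2 was lower and Erlin1 higher (adjusted p = 0.0625 and 0.0558), where 17% of all genes were lower and 19.1% higher. Scap, the escort of the sterol regulatory element-binding proteins, had log2 fold changes of 0.08 (adjusted p = 0.516) with SB431542 and -0.09 (0.166) with T-5224.

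**Figure D5:**
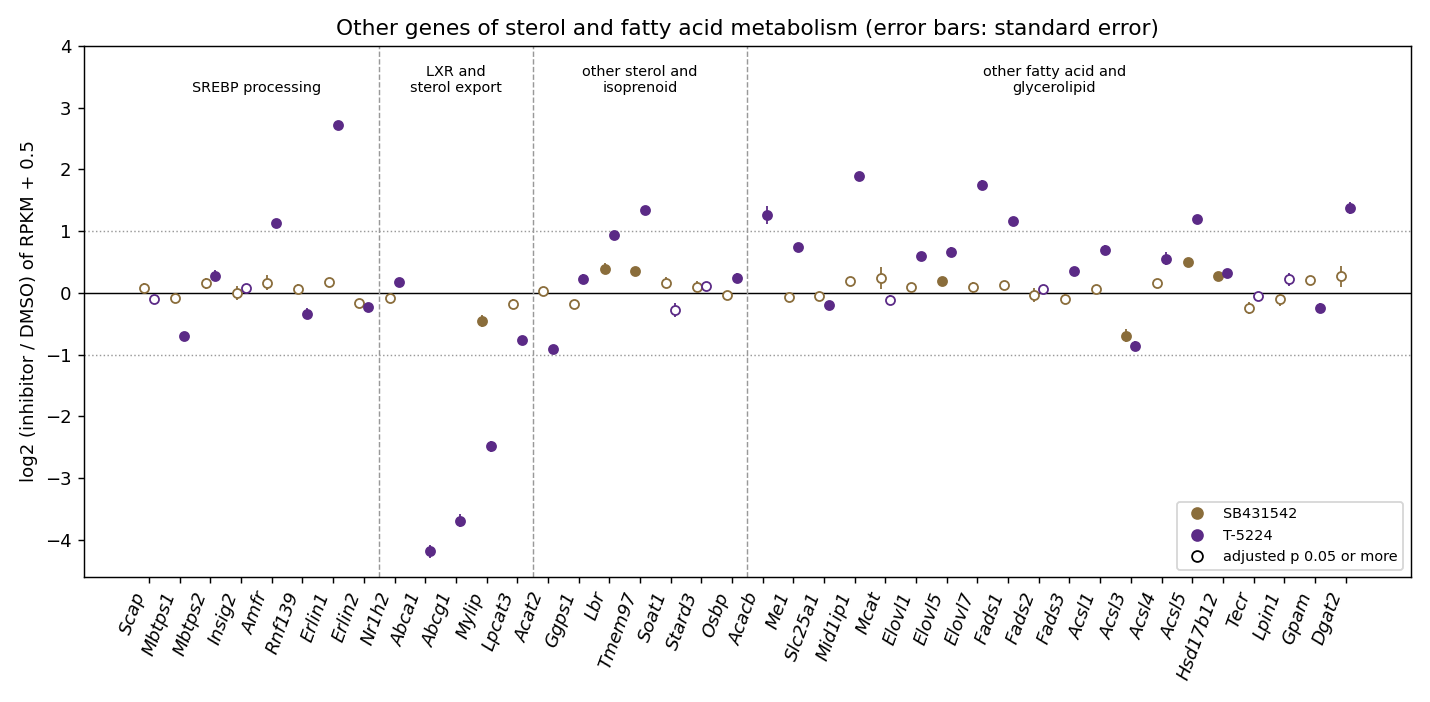
Log2 fold change of RPKM + 0.5 of the tested genes of the list of other sterol and fatty acid genes, by group, with standard errors, brown for SB431542 and purple for T-5224, and open points for an adjusted p of 0.05 or more. With T-5224 Abca1, Abcg1 and Mylip lie far below 0 (-4.19, -3.69 and -2.49) and Erlin1 far above it (2.71), while the brown points stay between -0.69 (Acsl3) and 0.50 (Acsl5).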

How the data were processed

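RNA-seq libraries were made with a stranded mRNA kit. Per the study's methods, the authors used TopHat for alignment to mm9, and the deposited RPKM values came from HOMER's analyzeRepeats.pl. Counts were not analysed here, so a count test was not run. All value columns were used. The DMSO columns of the T-5224 table are numbered 1 and 2, where the labels say 4 and 5, so these libraries are named by column. Rows named as dates (22 and 23) were left out.

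The members and lists were chosen with earlier results of these data known. In each table, genes with a mean of at least 1 RPKM were compared with limma 3.58.1 (R 4.3.3; two-sided) on log2(RPKM + 0.5), with empirical Bayes moderation along a trend of variance with mean, and p-values were adjusted by Benjamini-Hochberg over all genes tested. Fold changes on this scale understate changes of low genes. The study calls the cultures biological replicates. The 8 largest changes per experiment are given by library, and of the other list at most 6 beyond 2-fold in each direction. The fit was checked on simulated data in which 200 genes changed by more than 2-fold, and only calls beyond 2-fold were checked. Smaller changes, and changes in most genes as with T-5224, were not covered by it. Replicate numbers of the SB431542 experiment did not pair the samples.

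Depth came from RPKM of genes under 250 bases, which lie on steps of 1 read; 46.0% to 61.4% of these values came out whole within 0.05 reads, so depth is an estimate. Positions are from GENCODE for NCBIM37 (mm9), where Msmo1 is listed as Sc4mol. Copies were sought with minimap2 2.31. Alternatives were other pseudocounts, filters, scalings, no trend, a replicate block, unadjusted p and each library left out.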

Additional observations from a re-analysis of the deposited data

How the results depend on the processing

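With T-5224, 177 of 181 values of single genes kept direction and side of the threshold under other pseudocounts, filters and scalings and without the trend, and 99 of 104 with each library left out; the exceptions were Fasn, Idi1 and Sc5d, given above. Idi1 had no value at a mean of at least 5 RPKM. Without the filter the median of the sterol enzymes turned from 0.19 to -0.0262, since Tm7sf2 then entered, and it ran from 0.0063 to 0.38 with each library left out. The median of the fatty acid enzymes was -0.44 with quantile normalization. Members down beyond 2-fold were 0 to 2 and up beyond 2-fold 1 to 2 with each library left out.

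With SB431542, 205 of 208 values held under the processing alternatives and 121 of 156 with each library left out. The members lower were 4 at an unadjusted p, 0 with the replicate block (Mvd 0.0616) and 0 to 5 with each library left out, and the members higher 1 to 3. The shares of all genes with a library left out were not counted. Replicate numbers did not pair the samples, since same-numbered samples correlated at -0.148, 0.151 and -0.0949, and not every sample correlated best with its own number. The block took no call but Mvd and Elovl6 (0.0668). The medians of the sterol and fatty acid enzymes ran from -0.106 to -0.0549 and from 0.0602 to 0.12, the latter being 0.0635 with quantile normalization. Insig1 turned to -0.0156 with that scaling. With a library left out, genes near 0 changed sign: Insig1 (-0.0623 to 0.0534), Lss (-0.0139 to 0.062), Srebf2 (-0.0162 to 0.115), Idi1 (-0.0766 to 0.0428), Scd1 (-0.058 to 0.0602), Scd2 (-0.0465 to 0.00748), Msmo1 (-0.0774 to 0.00671) and Fdps (-0.155 to 0.0131). 2 or 3 libraries a group limit what small changes can be told apart. Except where fewer or more genes or libraries enter by construction, the cause of these shifts was not tested.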
